A study of Mus musculus with 5 samples.

Results

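The genes described here encode the insulin-like growth factor (IGF) ligands, the IGF2 receptor and the IGF binding proteins. They were taken from the count tables by symbol: Igf1, Igf2, Igf2r, Igfbp2, Igfbp3, Igfbp4, Igfbp5, Igfbp6 and Igfbp7. All 9 symbols were present among the 46959 gene symbols of every table. The series compared cells of D4M.3A, a mouse melanoma line on the C57BL/6 background. One line carried the retroviral vector pBABE (control genotype, 2 libraries) and the other caMNK, a constitutively activated form of the kinase MNK (3 libraries). MNK1 phosphorylates the translation factor eIF4E downstream of ERK and p38. All cells were at passages 7 to 12, and total RNA was sequenced. The submitters describe the libraries as biological replicates. The sources used here do not say whether a line is 1 clone or a pool, nor how its cultures were separated, and p-values reflect only how far these libraries vary. Each group is 1 line, so what caMNK did and how the lines differ otherwise cannot be told apart.

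IGF1 and IGF2 are secreted ligands that activate the IGF1 receptor tyrosine kinase, and through it the PI3K-AKT and ERK pathways. The IGF2 receptor, which is also the cation-independent mannose 6-phosphate receptor, carries no kinase: it takes up IGF2 for degradation and sorts acid hydrolases to lysosomes. The binding proteins are secreted and hold IGFs outside the cell with high affinity, with the exception of IGFBP7, a relative that binds IGFs weakly and is known in melanoma as a secreted antagonist of BRAF-ERK signalling. Proteases such as HTRA1 and PAPP-A cleave binding proteins and free the ligand.

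The stretches of 250 bases before the transcription start are shown for the 2 genes that changed, Igfbp3 and Igfbp7, and for 2 that did not pass the test, Igfbp4 and Igf2r, because their start regions differ in kind. They come from RefSeq (GRCm38.p6, the build called mm10 in the labels), where all 9 genes had an entry. Capitals mark matches, on either strand, to a TATA box (TATAAA or TATATA), a GC box (GGGCGG), an AP-1 site (TGANTCA), a CRE (TGACGTCA), an E-box (CACGTG) or an EGR site (GCGNGGGCG).
Igfbp3, chr11:7213924-7214173, minus strand: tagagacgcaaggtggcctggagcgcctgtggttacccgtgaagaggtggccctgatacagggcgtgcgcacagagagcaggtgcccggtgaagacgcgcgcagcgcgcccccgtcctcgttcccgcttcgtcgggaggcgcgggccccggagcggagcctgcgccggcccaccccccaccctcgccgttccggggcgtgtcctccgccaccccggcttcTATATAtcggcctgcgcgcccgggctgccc
Igfbp7, chr5:77408046-77408295, minus strand: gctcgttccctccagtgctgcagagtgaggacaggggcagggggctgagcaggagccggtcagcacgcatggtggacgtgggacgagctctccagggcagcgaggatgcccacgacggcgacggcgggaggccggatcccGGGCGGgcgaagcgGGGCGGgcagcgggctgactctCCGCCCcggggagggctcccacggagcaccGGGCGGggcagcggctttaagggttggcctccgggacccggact
Igfbp4, chr11:99040994-99041243, plus strand: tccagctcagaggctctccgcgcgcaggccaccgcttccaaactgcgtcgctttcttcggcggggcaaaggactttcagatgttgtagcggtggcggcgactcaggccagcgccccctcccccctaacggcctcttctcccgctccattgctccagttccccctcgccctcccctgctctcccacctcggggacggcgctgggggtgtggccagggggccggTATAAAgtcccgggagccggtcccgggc
Igf2r, chr17:12769707-12769956, minus strand: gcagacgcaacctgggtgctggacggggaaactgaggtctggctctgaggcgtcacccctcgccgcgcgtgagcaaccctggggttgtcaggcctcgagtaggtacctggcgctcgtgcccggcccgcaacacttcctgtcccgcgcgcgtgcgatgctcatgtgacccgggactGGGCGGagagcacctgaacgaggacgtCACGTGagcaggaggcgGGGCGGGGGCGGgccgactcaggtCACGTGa

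Counting the base before the start as the first upstream base, Igfbp3 had a TATA box beginning at position -30 and Igfbp4 one at -28, and neither had a GC box. Igfbp7 had 4 GC boxes and no TATA box. Igf2r had 3 GC boxes, 2 E-boxes and 1 EGR site, which overlaps GC boxes, and no TATA box. Of 32851 promoter windows of the same length, 15.6% held a TATA box, 32.7% a GC box, 6.02% an E-box and 4.7% an EGR site. The AP-1 letters (6.75% of all windows) and the CRE (1.55%) were in none of the 4 windows shown. Among the windows of the family not shown, that of Igf1 held an AP-1 match at -37 and an Igfbp2 window held one at -39. Igfbp3 and Igfbp7, which moved in opposite directions, were both rich in G and C (73.2% and 74.0%), with 32 and 26 CpG dinucleotides. The windows of Igfbp4 and Igf2r, which did not pass, were close to these (69.2% each, with 22 and 27 CpG dinucleotides). These contents were not compared with those of all windows.

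The libraries held 27827199 to 48794336 counts. Mknk1, the gene of MNK1, stood at 15.2 and 16.7 CPM in pBABE and at 155 to 168 CPM in caMNK, so the libraries match their labels. Comparisons below used edgeR's quasi-likelihood test with Benjamini-Hochberg adjustment over the 17026 genes that passed its filter on low counts. Levels are in CPM, counts scaled to the TMM-corrected library size. Single libraries weighed heavily: 1352 genes passed an adjusted p of 0.05 with all libraries, 23 when pBABE replicate 1 was dropped and 55 when pBABE replicate 2 was. The count was 255 when caMNK replicate 1 was dropped and 4942 when caMNK replicate 2 was. With total-count scaling 68.2% of the calls were rises, against 55.7% with TMM. Of 7 melanocytic markers, Mitf lay between 4.35 and 6.48 CPM, and Sox10, Dct, Tyr, Tyrp1, Pmel and Mlana were at 0 or under 0.5 CPM in every library. Of 9 mitochondrial mRNAs, 7 were tested, of which 5 rose and 0 fell, where 4.42% of all genes tested rose and 3.52% fell. The summed level of the 9 went from 11229 and 12346 CPM in pBABE to 17269 to 19495 CPM in caMNK. Too low to test were mt-Co2 and mt-Atp6, and mt-Co3 lay between 1.6 and 2.17 CPM. The nuclear RNAs Malat1 and Neat1 rose 2.32-fold and 2.53-fold. The part of these shifts in the results below was not tested.

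Igfbp3 rose and Igfbp7 fell in caMNK, and no other gene of the family passed the test. Of the 9 genes, 6 had enough counts to be tested, and the other 3, Igf2, Igfbp2 and Igfbp5, were at or near 0 in both groups. Among the 6 tested genes 1 rose (4.42% of all genes tested), 1 fell (3.52%) and 4 did not pass, and over both directions 7.94% of all genes passed. Their groups did not overlap in 5 of the 6, and in 44.9% of all genes. There were 3 positive and 3 negative log2 fold changes, with a median of -0.03 against -0.002 over all genes tested. DESeq2 and limma-voom each called 2 of the 6, the same 2 genes.

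**Figure D1:**
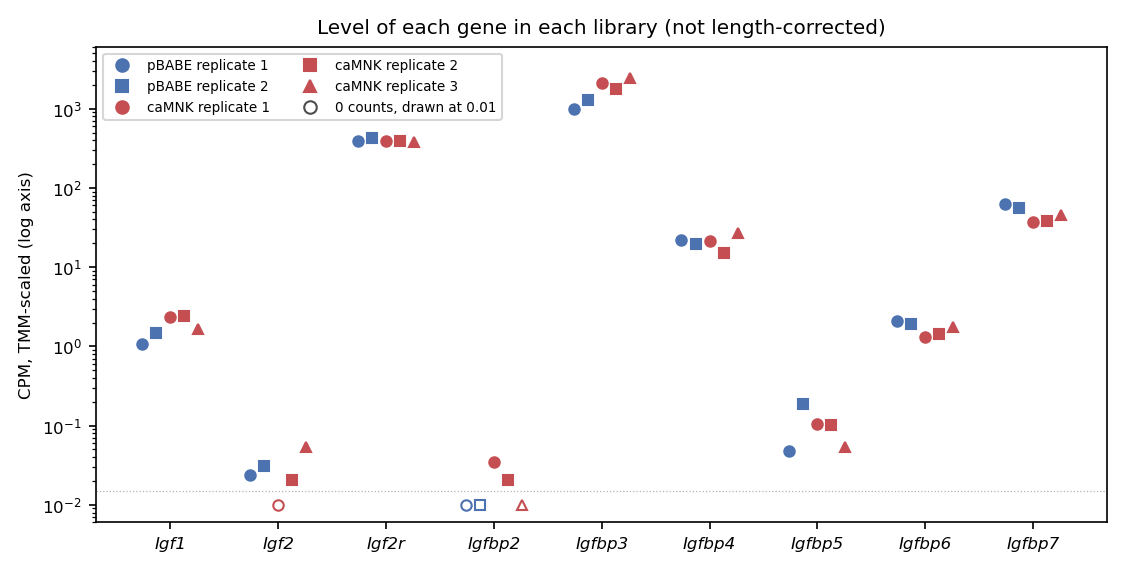
Level of each of the 9 genes in each library, in CPM on a log axis. Blue symbols are pBABE and red symbols caMNK libraries, the marker shape gives the replicate number, and open symbols below the dotted line stand for 0 counts. Igfbp3 lies between 983 and 2442 CPM, whereas Igf2, Igfbp2 and Igfbp5 stay under 0.2 CPM.

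The levels of the 9 genes lay far apart. Levels between genes were compared per kb of summed exons in GENCODE M21. Igfbp3 was highest, with a median of 566 CPM per exon kb over the 5 libraries (range 314 to 780). Igf2r followed with 42.4 (41.2 to 45.2) and Igfbp7 with 37.5 (31.0 to 51.6), and the ranges of these 2 genes overlapped. Igfbp4 (4.78, 3.41 to 6.03), Igfbp6 (1.58, 1.19 to 1.86) and Igf1 (0.166, 0.109 to 0.245) came next, each with a range apart from its neighbours. Igfbp5 (0.0171), Igf2 (0.00419) and Igfbp2 (0) closed the order, with a handful of counts at most. Among 44052 genes ranked on this scale, Igfbp3 held rank 159 and 107 in the pBABE libraries and 55, 75 and 48 in caMNK. The files' own lengths are genomic spans with introns, and reads from introns are in the counts. Per kb of that length Igfbp3 was still highest (226), but Igfbp4 (1.61) stood above Igfbp7 (0.771), whose gene is mostly intron.

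Igfbp3, the gene of the main IGF carrier of serum, rose from an already high level. It lies on chromosome 11 from 7206086 to 7213923 on the minus strand, and no annotated gene overlaps it. It measured 983 and 1289 CPM in pBABE and 2128, 1772 and 2442 CPM in caMNK. In bulk RNA, more cells that express a gene and more RNA per cell cannot be told apart. Every caMNK library was above both pBABE libraries, and the pBABE libraries themselves differed, replicate 2 being the higher. The mean rose from 1136 ± 217 (SD, n = 2) to 2114 ± 335 CPM (n = 3), 1.86-fold (log2 fold change 0.90, SE 0.159, 95% interval 0.53 to 1.26, edgeR adjusted p = 0.0152). Igfbp3 alone took 0.0959% and 0.126% of all counts in pBABE and 0.219%, 0.177% and 0.248% in caMNK. The call was lost without pBABE replicate 1 (log2 fold change 0.70, adjusted p = 0.186), pBABE replicate 2 (1.10, 0.0652) or caMNK replicate 1 (0.90, 0.0657).

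Igfbp7, the gene of the weakly IGF-binding secreted antagonist, fell. It lies on chromosome 5 from 77349240 to 77408041 on the minus strand. Its libraries measured 62.4 and 56.3 CPM in pBABE and 37.4, 38.0 and 45.3 CPM in caMNK. All 3 caMNK libraries were below both pBABE libraries, with caMNK replicate 3 nearest to them. The mean went from 59.3 ± 4.29 (SD, n = 2) to 40.3 ± 4.40 CPM (n = 3), 1.47-fold lower (log2 fold change -0.56, SE 0.11, 95% interval -0.81 to -0.31, edgeR adjusted p = 0.0212). Its call, too, was lost without pBABE replicate 1 (adjusted p = 0.251), pBABE replicate 2 (0.117) or caMNK replicate 1 (0.107). Igfbp7 overlaps Polr2b, which has more counts, by 85 bp at their starts, and reads in that stretch are in both counts. IGFBP7 is also made by endothelial cells. Of 4 endothelial markers, Cdh5 fell from 4.89 and 8.80 to 2.27, 2.47 and 2.81 CPM (adjusted p = 0.0141), and Kdr was at 0.144 CPM or less. Tek and Pecam1, both under 0.7 CPM and past no threshold, had positive log2 fold changes (0.82 and 1.07), and all caMNK libraries of Tek were above pBABE. The summed level, mostly Cdh5, was 5.47 and 9.48 CPM in pBABE and 3.54 to 3.63 CPM in caMNK. Their part in the fall of Igfbp7 was not tested.

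With these opposite changes the makeup of the binding protein transcripts shifted further toward Igfbp3. Summed per exon kb, the 6 binding protein genes came to 372 and 465 CPM per kb in pBABE and 717, 602 and 825 in caMNK. Igfbp3 made up 84.3% and 88.6% of that sum in pBABE and 94.8%, 94.0% and 94.5% in caMNK. The share of Igfbp7 was 13.9% and 10% in pBABE and between 4.32% and 5.22% in caMNK. Igfbp4 and Igfbp6 together never reached 2%. The ratio of Igfbp3 to Igfbp7 was 6.09 and 8.85 in pBABE and 22.0, 18.0 and 20.8 in caMNK, with no overlap between the groups. Per kb of the deposited length, Igfbp3 made up 97.6% to 99.1% of the sum in every library, so the size of this shift depends on the length used. These shares describe the levels above and were not tested separately.

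**Figure D2:**
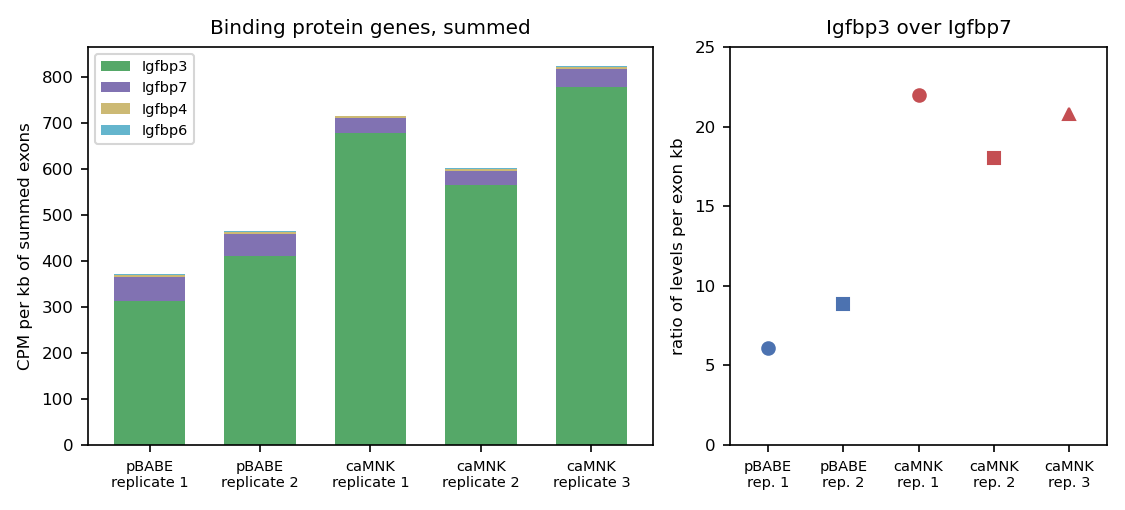
Left, stacked bars of the levels of Igfbp3, Igfbp7, Igfbp4 and Igfbp6 in each library, in CPM per kb of summed exons (Igfbp2 and Igfbp5 are too low to draw). Right, the ratio of the Igfbp3 to the Igfbp7 level in each library (blue pBABE, red caMNK), which runs from 6.09 to 8.85 in pBABE and from 18.0 to 22.0 in caMNK.

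Of the ligands, Igf1 was present at a low level and Igf2 was at most at 2 counts. Igf1 (chromosome 10, 87858265 to 87937042) had 45 and 47 counts in pBABE and 67, 118 and 61 in caMNK, that is 1.08 and 1.46 CPM against 2.34, 2.43 and 1.65 CPM. The caMNK libraries lay above both pBABE libraries, but the counting intervals of neighbouring values overlapped: 95% exact binomial (Clopper-Pearson) limits were 1.07 to 1.94 CPM in pBABE replicate 2 and 1.26 to 2.12 CPM in caMNK replicate 3. These limits cover counting error only. The log2 fold change was 0.77 (SE 0.254, 95% interval 0.19 to 1.35, edgeR adjusted p = 0.1) and did not pass. It passed without caMNK replicate 3 (0.93, adjusted p = 0.0387) and without a filter on low counts (0.76, 0.0220). Igf1 spans 78778 bp, and whether its few reads came from exons or introns cannot be read from the counts. Igf2 (chromosome 7, 142650766 to 142666816), the imprinted fetal ligand, had 1 and 1 counts in pBABE and 0, 1 and 2 in caMNK. The count of 0 in caMNK replicate 1 allows a level of up to 0.105 CPM (3 counts of that library, the limit used here for each count of 0).

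Igfbp2 and Igfbp5, neighbours on chromosome 1 that encode broadly acting binding proteins, were barely detected. Igfbp2 had 0 counts in both pBABE libraries and in caMNK replicate 3, and 1 count each in caMNK replicates 1 and 2. Its 0 counts allow up to 0.072, 0.093 and 0.0811 CPM. Igfbp5 had 2 and 6 counts in pBABE and 3, 5 and 2 in caMNK, with overlapping groups. No difference in these genes was detectable at this depth, and no fold is given.

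Igfbp4 and Igfbp6 did not pass the test. Igfbp4 (chromosome 11, 99041244 to 99054392), a binding protein that restrains IGF action until PAPP-A cleaves it, measured 21.7 and 19.6 CPM in pBABE and 21.1, 15.0 and 26.6 CPM in caMNK. The caMNK libraries fell on both sides of pBABE, replicate 2 being lowest and replicate 3 highest. Its log2 fold change was 0.01 (SE 0.208, 95% interval -0.46 to 0.49, edgeR adjusted p = 0.977), and over the 12 alternative settings it ran from -0.21 to 0.21. Igfbp6 (chromosome 15, 102144362 to 102149511), which prefers IGF2 as its ligand, measured 2.06 and 1.92 CPM in pBABE and 1.32, 1.44 and 1.76 CPM in caMNK. Its groups did not overlap, yet the difference was within the error of the fit (log2 fold change -0.40, SE 0.206, 95% interval -0.87 to 0.07, edgeR adjusted p = 0.262). At 38 to 86 counts per library, the interval includes both no change and a fall of the size seen for Igfbp7.

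Igf2r was abundant and close to constant. Its position is chromosome 17, 12682406 to 12769664, minus strand. It measured 396 and 421 CPM in pBABE and 395, 389 and 384 CPM in caMNK. The groups were separated by about 1 CPM, with a mean of 408 ± 17.8 (SD, n = 2) against 389 ± 5.60 CPM (n = 3). The log2 fold change was -0.07 (SE 0.0809, edgeR adjusted p = 0.637), and its 95% interval of -0.25 to 0.12 leaves out changes of the size seen for Igfbp3 and Igfbp7. Per exon kb, Igfbp7 was above Igf2r in both pBABE libraries (51.6 and 46.6 against 42.5 and 45.2) and below it in all 3 caMNK libraries (31.0, 31.5 and 37.5 against 42.4, 41.8 and 41.2). This change of order depends on the length used. Per kb of the deposited length, Igf2r (4.4 to 4.83) was above Igfbp7 (0.637 to 1.06) in every library.

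**Figure D3:**
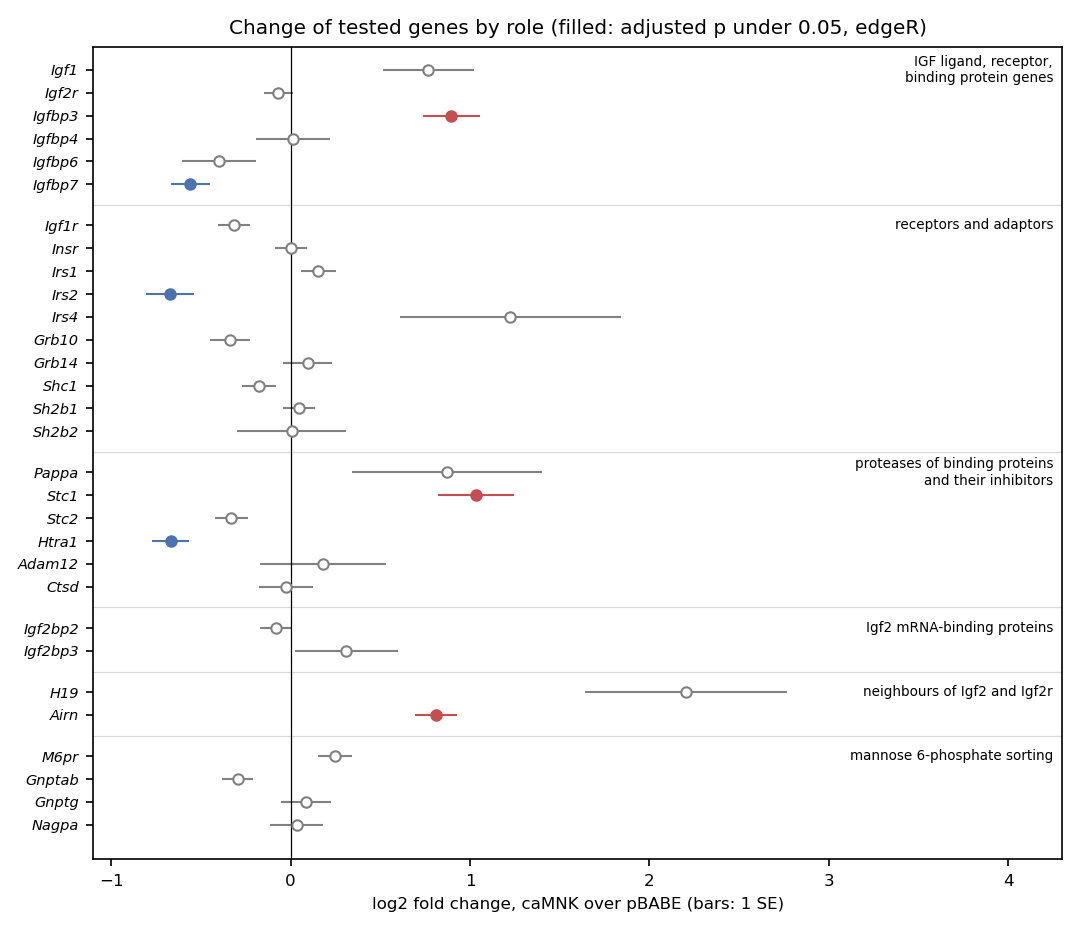
Log2 fold change, caMNK over pBABE, of the 6 tested genes of the family (top block) and of the tested genes of the wider IGF pathway by role, without the PI3K and AKT branch. Bars are 1 SE, and filled points passed an adjusted p of 0.05 in edgeR: Igfbp3, Stc1 and Airn rose, and Igfbp7, Irs2 and Htra1 fell.

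The antisense partner of Igf2r moved where Igf2r did not. Airn is the imprinted long non-coding RNA that starts inside Igf2r on the opposite strand and silences the paternal Igf2r allele in many mouse tissues. It rose from 37.6 and 45.2 CPM in pBABE to 73.1, 78.6 and 66.0 CPM in caMNK, 1.75-fold (log2 fold change 0.81 with SE 0.116, edgeR adjusted p = 0.00827). All 3 caMNK libraries were above both pBABE libraries. Airn and Igf2r overlap over 28354 bp, and the counts carry no strand between overlapping genes, so reads of Igf2r in that stretch are also in the count of Airn, and the reverse. Airn counts were 9.50% and 10.7% of those of Igf2r in pBABE and 18.5%, 20.2% and 17.2% in caMNK. The log2 fold change of Airn was positive in each of the 12 alternatives (0.67 to 0.94), and the call was lost without pBABE replicate 1 (adjusted p = 0.141) or pBABE replicate 2 (0.0610). Malat1, another nuclear RNA, rose in the same libraries from 169 and 169 to 486, 259 and 432 CPM, and its part in the result for Airn was not tested. At the other imprinted locus, H19, next to Igf2, had 9 and 9 counts in pBABE and 19, 90 and 28 in caMNK (log2 fold change 2.20, SE 0.563, edgeR adjusted p = 0.05, at the threshold and not past it). It passed in 7 of 11 alternatives, among them DESeq2 (0.00482) and total-count scaling (0.0386). It did not pass with limma-voom (adjusted p = 0.0763) or, in edgeR, without caMNK replicate 1 (adjusted p = 0.0696). Without pBABE replicate 1 its log2 fold change was 2.00, and without pBABE replicate 2 it was 2.37. In CPM, caMNK replicate 2, at 1.85, stood far above the other libraries. Leaving that library out gave 1.54 (adjusted p = 0.00944).

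Of 47 further genes of the pathway, 38 were tested, and 2 rose and 2 fell. Their median log2 fold change was -0.02, against -0.002 over all genes. A count of 4 of 38 compares with 7.94% of all genes. Leaving out caMNK replicate 2 gave 6 and 12 of 37 (13.9% and 15.7% of all genes in that setting), leaving out caMNK replicate 1 gave 1 (Airn) and 0 (1.04% and 0.474%), and leaving out either pBABE library gave 0 and 0.

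Among 10 tested receptor and adaptor genes 1 fell and 0 rose, where 3.52% of all genes tested fell and 4.42% rose. Irs2, the gene of a docking protein that links the insulin and IGF1 receptors to PI3K, fell from 17.1 and 17.1 CPM in pBABE to 11, 12.1 and 9.13 CPM in caMNK (log2 fold change -0.67, SE 0.133, with an edgeR adjusted p = 0.0218). All caMNK libraries were below pBABE. Irs2 shares a stretch of 609 bp with 9530052E02Rik, which has 23.0% as many counts. Igf1r, the signalling receptor of both ligands, measured 65.2 and 72.7 CPM in pBABE and 57.1, 53.4 and 55.5 CPM in caMNK. Its groups did not overlap, and the difference did not pass (log2 fold change -0.32, SE 0.0890, edgeR adjusted p = 0.0643). Without caMNK replicate 2 it passed (-0.29, 0.00891). Insr, the insulin receptor gene, measured 68.9 and 76.5 CPM in pBABE and 72.3, 76.3 and 69.5 CPM in caMNK (log2 fold change 0.001, 95% interval -0.21 to 0.21, edgeR adjusted p = 0.998). Grb10, the gene of an inhibitory adaptor of both receptors, measured 350 and 355 CPM in pBABE and 266, 320 and 251 CPM in caMNK (log2 fold change -0.34, edgeR adjusted p = 0.101; 0.000196 without caMNK replicate 2). Shc1, which links the receptors to the RAS pathway, had a log2 fold change of -0.18 (edgeR adjusted p = 0.283).

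Of 6 tested genes for proteases of binding proteins and their inhibitors, 1 rose and 1 fell (4.42% and 3.52% of all genes tested). Htra1, a secreted serine protease gene, fell from 37.0 and 36.5 CPM in pBABE to 22.5, 21.4 and 25.6 CPM in caMNK, 1.59-fold lower (log2 fold change -0.67, SE 0.104, with an edgeR adjusted p = 0.0105). The pBABE libraries were alike and all caMNK libraries were below them. In the annotation Htra1 lies within the span of Fgfr2, on the opposite strand, so reads of Fgfr2 transcripts in that stretch are in both counts. The overlap covers all 49550 bp of Htra1, and summed over the libraries Fgfr2 had 145795 counts against 5350 for Htra1. The part of Fgfr2 reads in the fall of Htra1 was not tested. Stc1, the gene of a stanniocalcin that inhibits PAPP-A, rose from 1.44 and 1.74 CPM in pBABE to 3.38, 2.69 and 3.68 CPM in caMNK, 2.05-fold (log2 fold change 1.03, SE 0.213, edgeR adjusted p = 0.0251). Its paralog Stc2 measured 37.4 and 34.9 CPM in pBABE and 27.5, 28.4 and 30.3 CPM in caMNK and did not pass (log2 fold change -0.33, edgeR adjusted p = 0.0646). It passed in 4 of 12 alternatives: the replicate block (0.0201), no filter (0.0441), and without caMNK replicate 2 (0.0086) or 3 (0.0433). Stc2 is named here after its values were seen. Pappa itself stayed between 0.0960 and 0.411 CPM. Ctsd, the lysosomal protease cathepsin D, had a log2 fold change of -0.02 (edgeR adjusted p = 0.942), with caMNK libraries on both sides of pBABE. The calls of Irs2, Htra1 and Stc1 were lost without pBABE replicate 1 (adjusted p of 0.197, 0.142 and 0.272), pBABE replicate 2 (0.164, 0.103 and 0.13) or caMNK replicate 1 (0.09, 0.0648 and 0.0946).

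No other branch held a call in edgeR. The 3 other binding protein genes, Igfbp1, Igfals and Igfbpl1, were too low to test. Of the Igf2 mRNA-binding protein genes 2 were tested, with 0 at an unadjusted p under 0.05; Igf2bp2, the abundant one, had a log2 fold change of -0.08 (edgeR adjusted p = 0.599). Over all genes, 25.9% had an unadjusted p under 0.05 and 50.4% a negative log2 fold change. Of 4 genes of mannose 6-phosphate sorting, which make the tag that IGF2R reads or encode the other receptor for it, 2 had an unadjusted p under 0.05 and 0 passed. Of 14 genes of the PI3K and AKT branch, 12 had a negative log2 fold change, 3 an unadjusted p under 0.05 and 0 passed, with a median of -0.19. DESeq2 and limma-voom called 0 in each of these 3 lists. Without caMNK replicate 2, however, members of both of the last lists passed, among them Gnptab, Pik3ca, Foxo1, Foxo3 and Foxo4 as lower and M6pr and Pik3r2 as higher.

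The expression profiles most like that of Igfbp3 over the 5 libraries were those of Dusp5, Nmnat2 and Areg. Likeness was the root mean square difference of log2 CPM, each gene centred on its mean. It was taken over 9469 genes whose mean log2 CPM reached 3. Symbols of predicted genes (Gm and digits, or ending in Rik) were passed over and are not among them. The differences were for Dusp5 0.0767, for Nmnat2 0.08 and for Areg 0.0819 on the log2 scale. Dusp5, an ERK phosphatase gene, measured 33.8 and 42.1 CPM in pBABE and 66.2, 55.3 and 71.7 CPM in caMNK. Areg, which encodes the EGF receptor ligand amphiregulin, measured 64.5 and 77.8 CPM and 147, 125 and 170 CPM. Nmnat2, an NAD synthesis gene, measured 27.3 and 32.4 CPM and 53.8, 42.7 and 57.7 CPM. As in Igfbp3, pBABE replicate 1 was lowest and caMNK replicate 3 highest in each. This shared order follows from how the 3 genes were chosen.

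**Figure D4:**
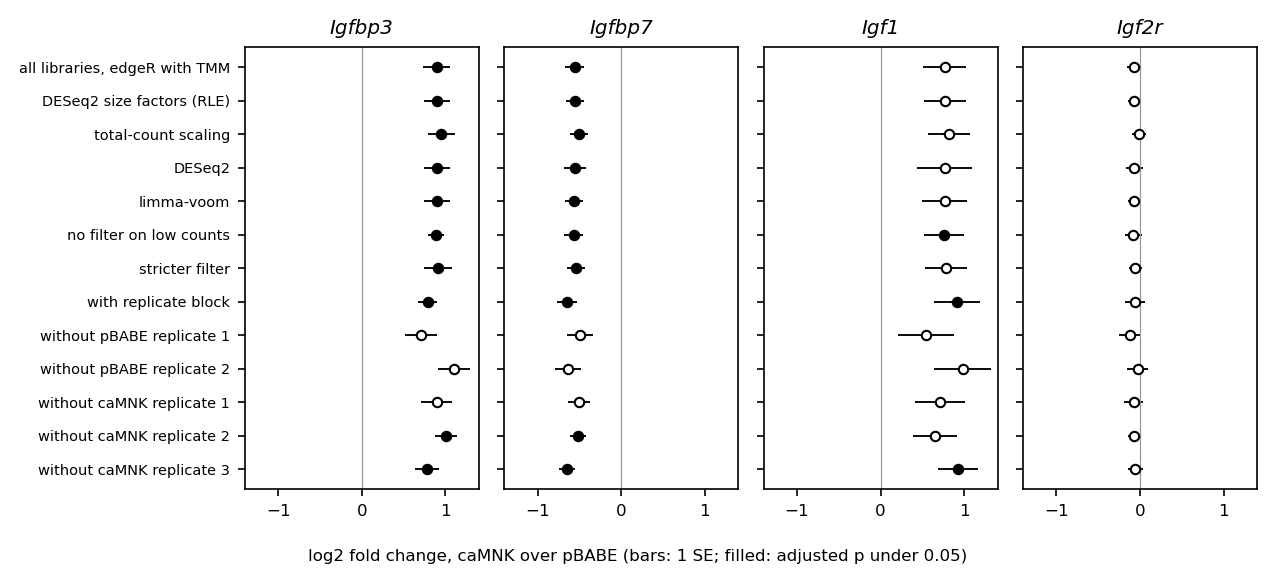
Log2 fold change, caMNK over pBABE, of Igfbp3, Igfbp7, Igf1 and Igf2r with all libraries and under each of 12 alternatives. Bars are 1 SE, and filled points passed an adjusted p of 0.05. Igfbp3 ranges from 0.70 to 1.10 and Igfbp7 from -0.65 to -0.50, each past the threshold in 9 of 12 alternatives, whereas Igf2r stays between -0.13 and -0.02 and never passes.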

How the data were processed

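RNA of 5 libraries was analysed: 2 of pBABE and 3 of caMNK cells, grouped by their titles. The deposited files hold raw read counts per gene symbol, 1 table per library. The submitters' processing notes name STAR 2.5.3, featureCounts 1.5.3, Trimmomatic 0.32, SAMtools 0.1.19, DESeq2, FastQC 0.11.2 and the build mm10. Which annotation and which options were used for counting is not given in the sources used here. The deposited length equalled the genomic span for 21639 of 27739 multi-exon genes in GENCODE M21 and the summed exons for 0, so counts cover gene bodies with introns. All 115 protein-coding genes nested in another on the opposite strand (1000 or more summed counts) lay in a gene with as many counts or more, as did all 104 on the same strand, so reads in overlapping genes are in both counts, whatever their strand. The closest 2 libraries had a chi-square of 5.94 per degree of freedom, so no library was a copy of another. Within caMNK, replicate 2 stood at 20.5 and 45 from replicates 1 and 3, which stood at 8.33 from each other. That library also held the most counts (48794336).

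The whole table was fitted with edgeR 4.0.16 in R 4.3.3 (filterByExpr, TMM, robust quasi-likelihood F test, group as the only term, adjusted p under 0.05). Standard errors were obtained by dividing log2 fold changes (absolute values) by the square root of F, and intervals use the degrees of freedom of the fit. Exact binomial limits are at 95%. A count of 0 allows 3 counts. The binomial limits and this allowance cover counting error only, whereas the intervals of log2 fold changes also reflect how far the libraries vary. The code was tested on simulated data. Alternatives were DESeq2 1.42.0, limma-voom (limma 3.58.1), other scalings and filters, a replicate block and leaving out each library. The members, lists and tests were chosen with earlier results of these data known. Named genes are the 9 members, pathway genes past the threshold, Igf1r and Insr. Receptor, adaptor, protease and Igf2 mRNA-binding genes of 50 CPM or more are named too. So are the 3 profiles closest to the member with the lowest p, with symbols of predicted genes passed over. Single values of some listed genes are not reported here. Marker lists of immune, epithelial and fibroblast cells were read beside these. Of 6 immune markers 2 were tested, and of 5 fibroblast markers 3 were, and none of these passed. The 4 epithelial markers were all too low to test, so none could pass. Of the fibroblast markers, Pdgfra lay between 38.1 and 54.5 CPM and the others were at 2.26 CPM or less.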

Additional observations from a re-analysis of the deposited data

How the results depend on the processing

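Under the 7 alternatives that left no library out (other scaling, filter, test or the replicate block), Igfbp3 and Igfbp7 kept their direction and their calls. In the replicate block, however, caMNK replicate 3 alone carries number 3, so it adds nothing to the group difference. Log2 fold changes there were close to those without caMNK replicate 3 (Igfbp3 0.786 and 0.781, Igfbp7 -0.65 and -0.651). None of the 6 called family and pathway genes changed direction under the 12 alternatives, and the sign of Igfbp4, which was not called, turned in 4 of 12. Leaving out 1 library (with 1 pBABE library left, it is assumed to vary like the caMNK libraries) gave 0 to 2 members higher, 0 to 1 lower, 0 to 6 pathway genes higher and 0 to 12 lower. The cause was not tested. Without a filter on low counts 2 members were higher (Igf1 joined Igfbp3, adjusted p = 0.0220) and 6 pathway genes lower. The pBABE and caMNK libraries share replicate numbers 1 and 2, but nothing in the labels pairs them, and the deviations of same-numbered libraries correlated at -0.055 and -0.025. With the numbers as a replicate block, 2 members were higher (Igf1, adjusted p = 0.0103), 1 lower, 3 pathway genes higher and 5 lower. Over all genes, 753 rose and 599 fell with all libraries, 1591 and 1330 without the filter, 1477 and 1231 with the block, 11 and 12 without pBABE replicate 1, 37 and 18 without pBABE replicate 2, 175 and 80 without caMNK replicate 1, and 2325 and 2617 without caMNK replicate 2. Without caMNK replicate 3, 938 genes rose and 774 fell. As shares of the genes tested, 5.69% rose and 4.75% fell without the filter, and 8.67% and 7.23% with the block. The shares without caMNK replicate 3 were 5.57% and 4.6%. Depth limits Igf2, Igfbp2 and Igfbp5, each at 6 counts or fewer per library.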

Other observations

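Genes within 500 kb of each member, a window chosen after the data were seen, were compared in the same fit. The 13 tested neighbours of Igfbp7, which fell, held 2 rises and 0 falls, where 4.42% of all genes tested rose and 3.52% fell. Spink2, a protease inhibitor gene, went from a mean of 2.43 to 4.59 CPM (log2 fold change 0.91, edgeR adjusted p = 0.0184), and 1700112J05Rik from 0.156 to 0.562 CPM. Igfbp3 had 1 tested neighbour, Adcy1, an adenylyl cyclase gene, with a log2 fold change of 0.60 (edgeR adjusted p = 0.0933). Igfbp4, which did not pass, lies in a region with 3 rises among 22 tested genes, but 2 of these, Krt12 and A830036E02Rik, overlap by 5304 bp and share reads. The keratin genes Krt20 and Krt12 there had log2 fold changes of 1.97 and 0.93 (edgeR adjusted p of 0.00170 and 0.00853). Near Igf2r, the kinase gene Map3k4 fell from a mean of 40.4 to 27.7 CPM (log2 fold change -0.54, edgeR adjusted p = 0.0112).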
